A study of Mus musculus with 90 samples.

Results

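Broad H3K9me3 domains outside DMRs are the peaks of 5000 bp or more in the H3K9me3 list pooled over both TKOL replicates that overlap no differentially methylated region (DMR) by even 1 bp. There were 1180 such domains among 2343 broad peaks and 104618 peaks of the list in all. The list was made from mouse embryonic stem cells (ESCs) grown on feeder fibroblasts, which can add their own chromatin to the samples. TKOL cells are a clonal J1 line that lacks catalytically active Dnmt3a and Dnmt3b and carries an shRNA against Dnmt1, and DKO0 cells are the same line after Cre removed the shRNA, so that both J1 lines share the Dnmt3a and Dnmt3b knockout. WT cells are V6.5 ESCs with all 3 enzymes and a different strain background, so strain and genotype cannot be told apart between WT and the J1 lines. H3K9me3 and Trim28 were measured by ChIP-seq, and Uhrf1 by ChIPmentation with a FLAG antibody in cells of each line whose Uhrf1 carries a FLAG tag, with 2 replicates per line and mark. The DMRs are regions that differ in methylation between DKO0 at passage 15 and TKOL, while the names of the DKO0 peak lists give passage 5 for H3K9me3 and Trim28 and passage 3 for Uhrf1.

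Membership could be decided only where both lists of DMRs were held whole, which is chromosomes 1 to 4, 10 to 19, X, Y and the first 78190000 bp of chromosome 5. Another 353 broad peaks on the rest of chromosome 5 and on chromosomes 6 to 9 overlap no DMR held here and stayed undecided. Broad peaks at DMRs numbered 631 on the decided stretch, so 65.2% of its broad peaks were domains outside DMRs. Neither list of DMRs held a region on chromosome X or Y, and whether these chromosomes were searched is not given in the sources used here. The authors also left stretches missing from the J1 lines out of their DMR search, so a domain can lie outside DMRs without having been scored. No DMR lay within 10 kb of 1144 of the 1180 domains.

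H3K9me3 is trimethylation of lysine 9 on histone H3, the mark of constitutive heterochromatin. In ESCs much of it lies on endogenous retroviruses such as intracisternal A particles (IAPs), where KRAB zinc finger proteins bind the DNA and recruit the corepressor Trim28, which brings the H3K9 methyltransferase Setdb1. Uhrf1 is the partner of Dnmt1 that recognises hemimethylated DNA and H3K9me3.

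A pair of amplicons and 3 stretches, each from a single domain, are shown as examples and do not stand for all domains. The amplicons are the references that the study used for 2 parts of IAP elements, with CpGs in capitals.
IAPEz amplicon: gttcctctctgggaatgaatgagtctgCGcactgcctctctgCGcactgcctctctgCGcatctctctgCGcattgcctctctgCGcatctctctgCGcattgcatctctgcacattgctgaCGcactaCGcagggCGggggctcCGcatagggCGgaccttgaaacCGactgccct
IAP LTR amplicon: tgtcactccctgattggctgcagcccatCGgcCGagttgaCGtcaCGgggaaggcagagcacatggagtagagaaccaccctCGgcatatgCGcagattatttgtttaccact

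The domain whose 31-base words recurred in most other domains was chr14:67081942-67088515 (mm9), 6574 bp wide with a fold enrichment of 16.3. A stretch of it, chr14:67087632-67087831 on the plus strand, is shown because its capitals mark a word found in 538 of the 1180 domains, in 531 of the 631 broad peaks at DMRs and at 2426 places in the genome.
chr14 domain: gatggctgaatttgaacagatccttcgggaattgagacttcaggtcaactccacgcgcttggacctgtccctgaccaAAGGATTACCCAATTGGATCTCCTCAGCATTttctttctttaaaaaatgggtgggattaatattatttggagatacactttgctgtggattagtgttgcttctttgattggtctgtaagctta

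The next comes from the domain with most copies of a word that codes for the conserved linker between the fingers of C2H2 zinc finger proteins. The word has 14 bases, was searched on both strands and may hold any base at the last position of a codon. The domain, chr16:98231313-98238141, held 18 of these words, and 3 of them stand in capitals in chr16:98231384-98231635 on the plus strand.
chr16 linker domain: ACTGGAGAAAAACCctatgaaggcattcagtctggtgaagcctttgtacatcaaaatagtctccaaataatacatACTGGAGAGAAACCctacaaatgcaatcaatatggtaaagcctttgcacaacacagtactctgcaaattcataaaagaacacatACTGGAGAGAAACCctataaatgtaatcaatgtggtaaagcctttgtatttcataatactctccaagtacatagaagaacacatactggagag

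The last is the centre of the widest domain, which lies on Etv5, at chr16:22396386-22396535 on the plus strand, with CpGs in capitals.
chr16 Etv5 domain: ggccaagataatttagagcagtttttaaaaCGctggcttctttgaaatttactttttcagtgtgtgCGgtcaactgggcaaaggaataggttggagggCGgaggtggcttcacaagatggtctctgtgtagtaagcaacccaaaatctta

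The domains had a median width of 6423.5 bp, with quartiles of 5539.5 and 7071 bp and a widest of 32952 bp. Together they covered 7.92 Mb, which is 10.6% of the bases in the list. A width of 6500 to 7500 bp was found for 344 domains (29.2%) and for 19% of the broad peaks at DMRs, whose median width was 7553 bp. Only 53 domains were wider than 10 kb. The fold enrichment, the ratio of reads to the background that MACS2 estimated, ran from 2.06 to 18.6 with a median of 6.53, against 10.8 for broad peaks at DMRs and 2.89 for the 77122 narrower peaks outside DMRs. The domains were chosen by their width in the pooled TKOL H3K9me3 list and by the absence of a DMR, so widths and TKOL H3K9me3 values are given as a description.

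**Figure D1:**
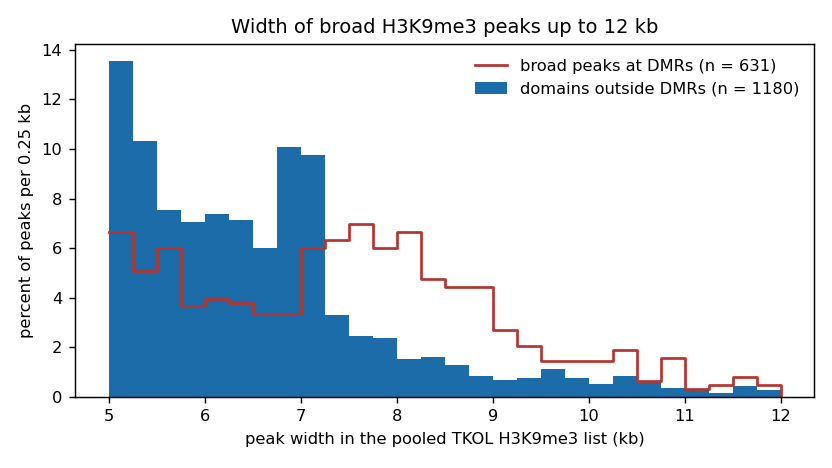
Share of broad peaks (y axis, percent of peaks per 0.25 kb) by width in the pooled TKOL H3K9me3 list (x axis, kb, up to 12 kb), for 1180 domains outside DMRs (bars) and 631 broad peaks at DMRs (line). The domains pile up at the 5000 bp limit and again near 7 kb, and the line is highest from 7500 to 7750 bp, with 44 peaks.

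The limit itself cut through a continuum. Just inside it lay chrX:111024033-111029032 (5000 bp, fold enrichment 9.61), chr16:48494024-48499023 (5000 bp, 4.94), on an exon of Morc1, a gene that silences transposons in the male germ line, and chr3:83856674-83861674 (5001 bp, 4.42). Just under it lay peaks of 4999 bp on chromosome 12 (fold enrichment 4.39), 4998 bp on chromosome 2 in an intron of Arfgef2 (8.99) and 4997 bp on chromosome 10 (4.90).

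The broad shape appeared only in the pooled lists, which were called again after the replicates had been merged. Whether the merging or the new call widened the peaks was not tested. No H3K9me3 list of a single replicate held a peak of 5000 bp or more, and the widest single-replicate peak was 4607 bp. TKOL replicate 1 covered 23.8% of the domains' bases and TKOL replicate 2 covered 13.3%. Both replicates had at least 1 peak on 989 domains, and neither had one on 39. The study states a target depth per library, but the lists hold no numbers of reads, so the depth reached is unknown. The number of peaks per single-replicate list ran from 25953 to 63579 for H3K9me3, from 15995 to 31921 for Trim28 and from 11440 to 49156 for Uhrf1.

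Most of the domains' sequence was repeated. Of the 31-base words in a domain, a median of 2.57% occurred once in the genome, and the median word had 809.75 copies. Only 109 domains (9.24%) consisted mostly of words found once in the genome. The domains held a median of 2.05 CpGs per 100 bases, against 2.15 in broad peaks at DMRs and 0.68 in 5-kb windows of the genome. At least 10% of the words of the IAPEz amplicon were found in 471 domains (39.9%), in 72.4% of broad peaks at DMRs and in 0.291% of 5-kb windows. For the IAP LTR amplicon these shares were 50% (590 domains), 90.2% and 1.3%. IAP sequence was thus frequent on the domains, and more so on the broad peaks at DMRs.

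Domains that shared words were joined into groups, at a mean of 30% of the smaller domain's words. This gave 232 groups, of which the 8 largest held 850 domains, and 209 domains stayed alone. Group 1 held 467 domains with a median width of 6928 bp and quartiles of 5677.5 and 7075.5 bp. Words of the IAP amplicons were frequent in it: 459 of its domains had IAPEz words and 455 had IAP LTR words. All 34 domains of group 4 had IAP LTR words as well. Its median fold enrichment in TKOL was 12, and its median word had 886.5 copies in the genome. Group 2 held 216 domains with a median width of 5892 bp, 1.49 CpGs per 100 bases, a fold enrichment of 5.13 and 4472.5 copies of the median word. Only 1 of its domains had IAPEz words and 4 had IAP LTR words. Group 3 held 44 domains with 4684 copies of the median word and was like group 2 in width and CpG density. No repeat annotation was used, so the groups carry numbers. A median of 93.0% of the words of a group 1 domain also occurred in at least 10 broad peaks at DMRs, against 35.7% for group 2.

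**Figure D2:**
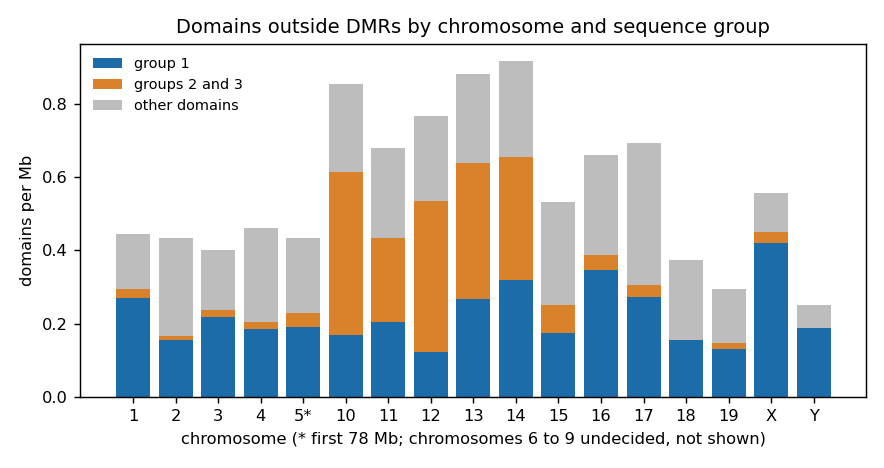
Domains per Mb (y axis) on each chromosome (x axis), split into sequence group 1, sequence groups 2 and 3, and all others. Chromosomes 10 to 14 reach 0.681 to 0.919 domains per Mb, and the excess over the other chromosomes lies in groups 2 and 3.

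Chromosomes 10, 12, 13 and 14 were the richest in domains, followed by 17 (0.693 per Mb) and 11 (0.681). Chromosomes 10 to 14, set together after their values were seen, held 508 domains at 0.821 per Mb, while the other decided chromosomes held 672 at 0.479 per Mb. Chromosome 14 had 115 domains (0.919 per Mb), chromosome 13 had 106 (0.881) and chromosome 10 had 111 (0.854), and the lowest densities were on Y (0.252) and 19 (0.293). Groups 2 and 3 made this difference in number: 183 of the 216 domains of group 2 and 40 of the 44 of group 3 lay on chromosomes 10 to 14. Without these groups the densities were 0.461 and 0.452 per Mb. Group 1 had 0.217 per Mb on chromosomes 10 to 14 and 0.237 on the others. On chromosome X, 70 of 93 domains belonged to group 1.

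The sequence of group 2 itself was not crowded on these chromosomes. Long copies, with at least 50% of the 501 words that most of group 2 shared, were counted over the whole genome whether or not they carried a broad peak. There were 2427, of which 518 lay on chromosomes 10 to 14. Nearly all had some pooled TKOL H3K9me3 peak, 518 of 518 on chromosomes 10 to 14 and 1903 of 1909 elsewhere. Single lists differed more, also in WT, where H3K9me3 marked 97.7% and 95.9% of copies on chromosomes 10 to 14 and 76.4% and 73.2% elsewhere, and Trim28 marked 94.2% and 38.8% against 64.5% and 30.9%. A peak of 5000 bp or more covered 155 copies (29.9%) on chromosomes 10 to 14 and 29 (1.52%) elsewhere in pooled TKOL, and 185 (35.7%) and 38 (1.99%) in pooled DKO0. For group 1 the same count gave 94.4% of 287 copies on chromosomes 10 to 14 and 93.1% of 880 elsewhere in TKOL. Reads were aligned by BWA mem with default settings, and the paper's methods name no filter for ChIP-seq reads with several equal places. The part that the placing of reads among these near-identical copies had in the excess was not tested. The comparisons of lines and of regions below were also computed without groups 2 and 3, whereas the counts of clusters, genes and mark combinations were not.

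Chains of at least 3 domains with gaps of at most 1 Mb numbered 146 and held 602 domains (51.0%). The median distance between neighbouring domains was 977 kb, near the gap allowed, so the number of chains depends on this choice. The broad peaks at DMRs, which are fewer on the same stretch, formed 47 such chains with 27.6% of their number, and no test of clustering was made. The cluster with most domains, chr4:145032748-147121656, held 12 domains in 2.09 Mb with fold enrichments of 2.88 to 6.12. A domain lay on 5 of its 20 coding genes, namely Gm13138, Gm13139, Gm13152, Gm13251 and Zfp600, the last a zinc finger gene by its symbol. None of these 12 domains belonged to groups 1 to 3, and 5 of them held at least 3 linker words. In this cluster Uhrf1 had a peak on 12 domains in pooled TKOL and on 9 in pooled DKO0, and Trim28 on 8 and 9. The next, chrX:28075142-32442122, held 11 domains, 6 of them of group 1, and 19 coding genes, none of which had a domain, with Trim28 on all 11 in both pooled lists and Uhrf1 on 7 in TKOL and 6 in DKO0. The third, chr12:68656178-73746481, held 10 domains, of which 3, 2 and 2 belonged to groups 1, 2 and 3.

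Most domains lay outside coding genes. A coding gene (GENCODE, mm9) was overlapped by 297 domains (25.2%), against 39.6% of 5-kb windows of the genome. An exon was touched by 76 domains (6.44%), against 19.8% of windows, 5.55% of broad peaks at DMRs and 1.66% of narrower peaks, which are far shorter. The other 221 lay within introns, and 5 domains covered the start of a coding gene. Of 15936 coding genes on the decided stretch, 284 (1.78%) had a domain.

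Gene families were read from symbols of coding genes on the decided stretch, which leaves out chromosomes 6 to 9. Of 217 zinc finger genes, 4 had a domain (1.84%), near the 1.78% of all coding genes there. These were Zfp600, Zfp532 (9870 bp, exon), Zfp69 (7001 bp, intron) and Zfp407 (5042 bp, intron). Genes with Gm symbols were not counted as zinc finger genes, although domains with 10 linker words each lay on Gm13139, Gm13251 and Gm14139. Domains were also found on 1 of 709 olfactory receptor genes (Olfr1388), a share of 0.141% that is below the 1.78% of all coding genes. Of 97 genes of multicopy germline and X-linked families, 2 had a domain (Mageb18 and Ssxb6, in introns). There was no domain on any of 49 Vmn1r and 54 Vmn2r pheromone receptor genes, 36 protocadherins or 3 genes of the SP100 family. The 176 genes of other clusters, 13 factors of DNA methylation and heterochromatin, 8 imprinted genes and 8 silenced germline genes had none either. Most of these sets are so small that a share of 1.78% would leave them with few domains or none. No family was tested, so whether any of them holds fewer domains than other genes is not decided here.

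The widest domains were of another kind than the most enriched. The 5 widest all touched exons: chr16:22379985-22412936 on Etv5, an ETS transcription factor (32952 bp, fold enrichment 4.76), chr10:82829089-82856268 on D10Wsu102e (27180 bp, 5.13), chr15:96406768-96428293 on Slc38a1, an amino acid transporter (21526 bp, 6.30), chr4:146545235-146563094 on Gm13139 (17860 bp, 5.49) and chr17:23948369-23965859 on Srrm2, a splicing factor, and Tceb2, a subunit of Elongin (17491 bp, 6.47). Pooled DKO0 H3K9me3 covered between 89.9% and 100% of each. Single replicates did not: on the Etv5 domain TKOL replicates 1 and 2 covered 0 and 0.571% of the bases, DKO0 replicates 2.76% and 0, and both WT replicates 0. On the Gm13139 domain the same lists covered 19.9% and 2.38%, 20.5% and 4.40%, and 9.17% and 5.44%. Of the 53 domains over 10 kb, 34.0% touched an exon.

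The 5 domains of highest fold enrichment were 5145 to 7026 bp wide and touched no exon. They were chr10:122269931-122276956 in an intron of the phosphatase gene Ppm1h (fold enrichment 18.6), chr16:65176666-65181810 (18.2), chr13:82029994-82036970 (18.1), chr10:41560353-41567369 in an intron of Sesn1, a stress-response gene (17.1), and chr13:66330261-66337187 (16.9). Pooled Trim28 covered 81.6% to 98.9% of each in TKOL. On the Ppm1h domain Trim28 covered 12.3% and 8.18% of the bases in TKOL replicates 1 and 2, 12.7% and 13.7% in DKO0 and 13.5% and 4.06% in WT. Uhrf1 on this domain covered 2.68% and 0 in TKOL, 0 and 0 in DKO0, and 9.42% and 26.9% in WT.

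At least 3 linker words were found in 10 domains (0.847%), in 1 of the 631 broad peaks at DMRs and in 0.109% of 5-kb windows. A match says only that these letters are there. These domains lay on chromosomes 2, 4, 10 and 16, were 5032 to 17860 bp wide and had fold enrichments of 3.03 to 6.12. Coding genes were overlapped by 4 of them, namely Zfp600, Gm14139, Gm13251 and Gm13139. The chr16 domain shown above, 0.147 kb from B230307C23Rik, had no Trim28 peak in any list, and its only Uhrf1 peak, in WT replicate 2, covered 3.02% of it. The domain on the end of Zfp600, chr4:146162801-146167832, held 13 linker words, and its Uhrf1 coverage was 20.4% and 7.85% in TKOL, 4.73% and 7.13% in DKO0 and 19.7% and 17.3% in WT, while Trim28 covered 4.41% in TKOL replicate 1 and 0 in the other 5 single lists.

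**Figure D3:**
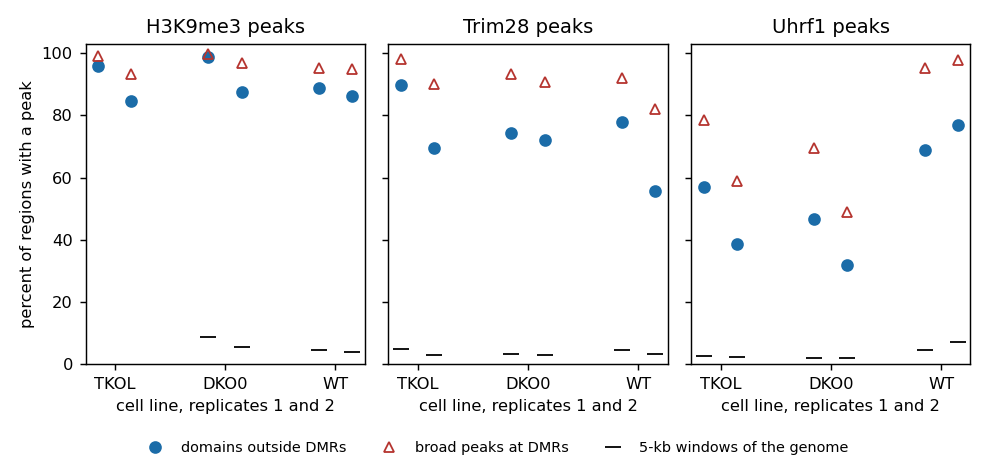
Percent of regions with at least 1 bp in a peak (y axis) in each single-replicate list (points, replicate 1 left and replicate 2 right of each line), for the 1180 domains, the 631 broad peaks at DMRs and the 5-kb windows of the genome; no window value is drawn for TKOL H3K9me3, whose pooled list chose the domains. In each list the domains lie far above the windows and below the broad peaks at DMRs.

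H3K9me3 of DKO0 and WT lay on nearly all domains. The pooled DKO0 list had a peak on all 1180, against 65.2% of all peaks of the TKOL list and 12% of 5-kb windows, and it covered at least 90% of the bases of 1111. A DKO0 peak of 5000 bp or more overlapped 1035 domains (87.7%). Of single lists, DKO0 replicates 1 and 2 had a peak on 98.7% and 87.5% of domains (34.1% and 20.3% of all peaks of the TKOL list, 8.8% and 5.52% of windows), and WT replicates on 88.7% and 86.4% (17.4% and 16.2% of all peaks, 4.54% and 4% of windows). DKO0 replicate 2 lay within the range of WT and DKO0 replicate 1 above it. The means were 93.1% ± 7.97 (SD, n = 2) in DKO0 and 87.5% ± 1.68 (SD, n = 2) in WT, a difference of 5.55 percentage points (exact two-sided permutation test, p = 0.667, where 0.333 is the smallest p that 2 lists against 2 allow), which was −0.0847 points without DKO0 replicate 1. It was 26.1 points with peaks of a −log10 q-value of at least 5 and 21.4 points when 10% of a domain had to be covered (exact permutation p = 0.333 for both). The domains were chosen by H3K9me3 in TKOL, the line from which DKO0 derives and WT does not. This choice can favour DKO0 for the same mark, so the test cannot part the lines from the choice of domains. Both WT replicates had a peak on 978 domains, one had it on 110, and 92 (7.80%) had none. Of those 92, 80 belonged to the 209 domains that shared their sequence with no other. Domains on little-repeated sequence had fewer H3K9me3 peaks in single TKOL lists too, as given further below.

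Trim28 lay on most domains in every line. In pooled TKOL it had a peak on 1121 domains (95%, Wilson 95% interval 93.6 to 96.1, counting error only), against 31% of all peaks of the H3K9me3 list, whose median width is 296 bp, and 7.46% of windows, and in pooled DKO0 on 1066 (90.3%, 88.5 to 91.9), against 28.8% and 7.65%. An overlap of 1 bp is more easily met by wide domains than by these narrow peaks, and coverage per base is compared further below. Both pooled lists marked 1055 domains, only TKOL 66 and only DKO0 11. In single lists it was found on 89.7% and 69.7% of domains in TKOL replicates 1 and 2, 74.2% and 72.1% in DKO0 and 77.8% and 55.6% in WT. In the same order, these lists marked 17.4%, 9.32%, 9.95%, 9.07%, 12.7% and 7.37% of all peaks of the H3K9me3 list and 4.91%, 2.92%, 3.2%, 2.8%, 4.45% and 3.21% of windows. TKOL held both a higher and a lower value than DKO0, and the WT values enclosed those of DKO0. The difference of DKO0 from TKOL was −6.48 percentage points (73.2% ± 1.50 against 79.7% ± 14.1, SD, n = 2 each, exact permutation test, p = 1). That of WT from the J1 lines was −9.72 points (66.7% ± 15.7, n = 2, against 76.4% ± 9.02, n = 4, exact permutation test, p = 0.533). The first turned to 3.52 points without TKOL replicate 1, and the second to 1.38 points without WT replicate 2. All 6 single lists marked 523 domains, and none marked 73, of which 53 were lone in sequence.

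Uhrf1 peaks were called on fewer domains than Trim28 peaks in the J1 lines. The marks came from different assays, and the pooled TKOL lists covered 8.65 Mb for Uhrf1 and 32.8 Mb for Trim28. These shares therefore do not compare the occupancy of the marks. In WT the mean was 72.9% for Uhrf1 and 66.7% for Trim28. The pooled TKOL list had a peak on 931 domains (78.9%, Wilson 95% interval 76.5 to 81.1), against 9.56% of all peaks of the H3K9me3 list and 6.19% of windows, and pooled DKO0 on 837 (70.9%, 68.3 to 73.5), against 8.1% and 4.61%. Both pooled lists marked 770 domains, only TKOL 161 and only DKO0 67. Single lists marked 56.9% and 38.6% of domains in TKOL replicates 1 and 2, 46.8% and 31.9% in DKO0 and 68.9% and 76.9% in WT. In the same order, they marked 6.56%, 3.51%, 4.55%, 3.41%, 6.75% and 9.17% of all peaks of the H3K9me3 list and 2.74%, 2.41%, 1.84%, 1.81%, 4.57% and 7.05% of windows. TKOL and DKO0 overlapped, and both WT values were above all 4 of the J1 lines. DKO0 minus TKOL was −8.35 points (39.4% ± 10.5 against 47.7% ± 12.9, SD, n = 2 each, exact permutation test, p = 0.667), and this turned to 0.805 points without TKOL replicate 1.

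WT exceeded the J1 lines by 29.4 points for Uhrf1 (72.9% ± 5.69, n = 2, against 43.5% ± 10.8, n = 4, SD). The exact two-sided permutation test gave p = 0.133, which is the smallest this design allows, and no value under 0.05 can be reached. The WT lists held 30134 and 49156 peaks and the J1 lists 11440 to 17444. With the same number of peaks taken from each list the difference was 22.2 points, and without groups 2 and 3 it was 41.4 points (87.3% ± 2.92 against 45.9% ± 8.30, exact permutation p = 0.133 in both cases). It was 8.98 points when only peaks whose −log10 q-value reached 5 were counted, and 47.4 points when a peak had to cover 10% of a domain. WT and TKOL cells had also been tagged separately. After Benjamini-Hochberg adjustment over these 5 comparisons of lines, p ran from 0.667 to 1. P-values measure the spread between these lists only, since nothing says whether replicates came from separate cultures.

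In pooled TKOL, Uhrf1 and Trim28 shared 915 domains (77.5%), Trim28 was alone on 206, Uhrf1 was alone on 16, and 43 had neither. In pooled DKO0 these numbers were 803, 263, 34 and 80. All 16 domains with Uhrf1 alone in TKOL lay outside groups 1 to 8, 15 of them among the lone domains. The 43 with neither lay outside these groups too, with 40 among the lone domains. These counts are read from peaks called separately in each line, so a domain can leave a class by a small change in signal. The pooled Uhrf1 list held 30516 peaks in DKO0 and 40754 in TKOL. The pooled Trim28 list held more peaks in DKO0 (62621 against 56161) but covered 28.7 Mb against 32.8 Mb. The part of these list sizes in the change of classes was not tested. The classes were not counted over all H3K9me3 peaks or windows, so no background share is given.

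**Figure D4:**
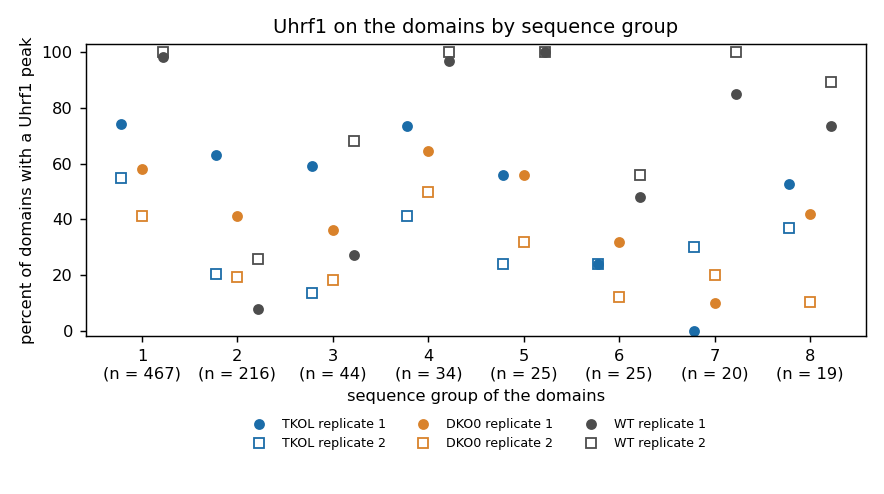
Percent of domains with a Uhrf1 peak (y axis) in each of the 6 single-replicate lists, for the 8 largest sequence groups (x axis, with the number of domains). In group 1 the WT points stand at 98.5% and 100%, while in group 2 they stand at 7.87% and 25.9%, among or under those of the J1 lines. The groups hold only copies that were broad in pooled TKOL H3K9me3, not all copies of a sequence.

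The domains of the sequence groups differed in which lines carried Uhrf1. In group 1 Uhrf1 had a peak on 74.3% and 54.8% of 467 domains in TKOL replicates 1 and 2, 58.2% and 41.3% in DKO0, and 98.5% and 100% in WT. WT was higher than each J1 list there. In group 2 the same lists marked 63.0% and 20.4% of 216 domains in TKOL, 41.2% and 19.4% in DKO0, and 7.87% and 25.9% in WT. There the WT values lay in the range of the J1 lists or under it, although the WT lists held more peaks. These domains are only the copies that were broad in pooled TKOL, and 183 of them lay on chromosomes 10 to 14. On the 1909 long copies of the group 2 sequence elsewhere, WT lists marked 8.80% and 4.61%, above each J1 list (1.15% to 2.36%). The low WT values are thus not a trait of all copies of this sequence. In group 7, 20 domains with 3.17 CpGs per 100 bases, the densest of the 8 groups, TKOL lists marked 0 and 30%, DKO0 lists 10% and 20%, and WT lists 85% and 100%. The groups were formed after earlier results were known and no test was made between them.

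Trim28 was present on 100% of the domains in groups 1 and 2 in both pooled lists. In single lists it marked 100% and 95.9% of group 1 in TKOL, 96.1% and 95.3% in DKO0, and 97.4% and 86.7% in WT. For group 2 these values were 100% and 72.2%, 80.6% and 82.9%, and 94.9% and 48.6%. Group 7 was low, with 85% and 10% in TKOL, 40% and 40% in DKO0, and 30% and 10% in WT.

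On all long copies of the group 2 sequence, Uhrf1 followed the same chromosomes as the broad peaks in the J1 lines. In TKOL it was found on 75.3% and 19.3% of the 518 copies on chromosomes 10 to 14 and on 2.15% and 1.15% of the 1909 others. Of the 41 others marked in TKOL replicate 1, 20 lay on chromosome 15, where 19.6% of 102 copies were marked. In DKO0 the values were 39.0% and 14.3% against 2.36% and 1.57%. In WT they were 8.11% and 22.2% against 8.80% and 4.61%. On copies of group 1, Uhrf1 in TKOL was found on 87.8% and 59.9% of 287 copies on chromosomes 10 to 14 and on 75.1% and 54.8% of 880 others.

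**Figure D5:**
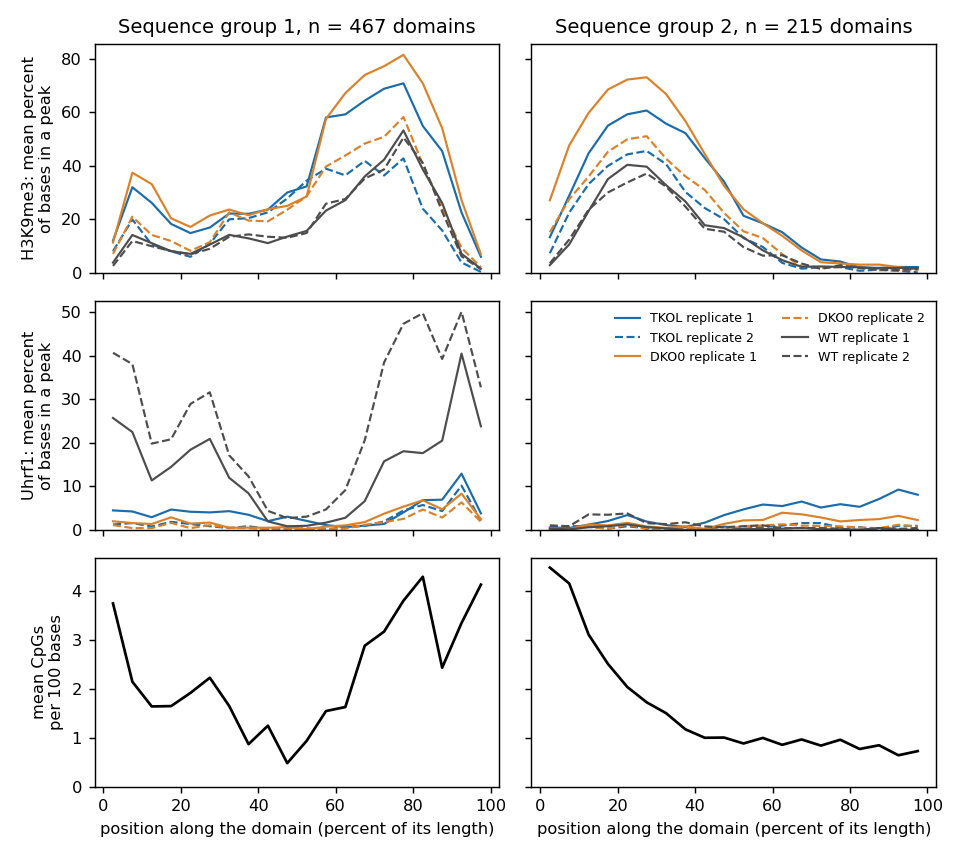
Mean percent of bases in a peak (upper and middle rows, y axes) and CpGs per 100 bases (lower row) along domains of sequence groups 1 and 2, all turned to 1 direction and divided into 20 equal parts (x axis, percent of length), with 1 line for each single-replicate list. In group 1 H3K9me3 is highest at 77.5% of the length in all 6 lists and Uhrf1 at 92.5%, while in group 2 H3K9me3 is highest at 22.5 or 27.5%.

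Within a domain the marks did not lie evenly. The 467 domains of group 1 were turned so that the IAPEz amplicon reads forward, as the study's table writes it, in all 459 domains that had it. Its median position was then at 81.3% of the length. H3K9me3 was highest in the part centred at 77.5% of the length in all 6 single lists, where it covered 70.9% and 42.8% in TKOL, 81.5% and 58.3% in DKO0 and 53.3% and 50.6% in WT. In the last part, centred at 97.5%, it covered 6.03%, 0.402%, 6.94%, 2.16%, 1.59% and 1.38%. Trim28 was highest in the same part as H3K9me3, with 56.8% and 38.1% in TKOL, 42.3% and 40.3% in DKO0, and 42.8% and 23.4% in WT.

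Uhrf1 was highest nearer to the end of the group 1 domains, at 92.5% of the length in all 6 lists. It covered 12.9% and 10.1% there in TKOL, 8.32% and 6.31% in DKO0 and 40.5% and 50.0% in WT. In the middle it covered at most 2.87% in any of them. CpGs were also sparse in the middle, with 0.712 per 100 bases, against 3.75 in the first part and 4.13 in the last. In group 2, H3K9me3 was highest at 27.5% of the length in 5 lists and at 22.5% in WT replicate 1, with 60.7% and 45.6% in TKOL, 73.1% and 51.1% in DKO0 and 40.4% and 37.2% in WT. CpGs in group 2 were densest in the first part, at 4.48 per 100 bases, and sparse in the last, at 0.730. These profiles are means over domains that share much of their sequence, and no test was made.

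The domains were then compared with the broad peaks at DMRs, to show where those outside DMRs differ. The measure is the percent of bases in a peak of each single list, paired within the list, with an exact two-sided sign-flip test over lists. Trim28 covered 6.37% of the bases of domains and 8.51% at DMRs, on average over 6 lists. The difference was −2.14 points ± 0.413 (SD), lower in 6 of 6 lists (exact permutation p = 0.03125, the smallest possible with 6 lists, adjusted p = 0.0469 over 6 comparisons of regions). Uhrf1 covered 5.56% and 7.72%, a difference of −2.16 points ± 2.18, again lower in 6 of 6 lists (exact permutation p = 0.03125, adjusted p = 0.0469). It was −4.13 and −5.67 points in the WT lists and between −1.05 and −0.535 in the J1 lists. Without groups 2 and 3 the Uhrf1 difference was −1.19 points (exact permutation p = 0.03125), and with peaks of a −log10 q-value of at least 5 it was −0.292 points and the call was lost (exact permutation p = 0.0938). H3K9me3 of DKO0 and WT covered 17.3% and 18.6%, a difference of −1.27 points ± 0.862 (exact permutation p = 0.25, 4 lists, smallest possible 0.125). The region classes were not matched on fold enrichment or sequence. By the share of regions with a peak, group 1 stood above the broad peaks at DMRs for Trim28 in 6 of 6 lists. Its values were 100%, 95.9%, 96.1%, 95.3%, 97.4% and 86.7% in TKOL, DKO0 and WT, against 98.1%, 90.2%, 93.2%, 90.8%, 92.1% and 82.1%. For Uhrf1 group 1 was above them in the WT lists (98.5% and 100% against 95.4% and 97.8%) and below in the J1 lists.

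Against the 77122 narrower H3K9me3 peaks outside DMRs, the domains had more Trim28 and Uhrf1 per base. For Trim28 the difference was 2.23 points ± 0.677, with 6.37% against 4.14%, and for Uhrf1 it was 3.57 points ± 4.74, with 5.56% against 1.99% (both higher in 6 of 6 lists, exact permutation p = 0.03125, adjusted p = 0.0469). Uhrf1 was higher by 6.70 and 11.9 points in WT and by 0.251 to 1.06 points in the J1 lists. For H3K9me3 of DKO0 and WT it was 3.11 points ± 1.11, higher in 4 of 4 lists (exact permutation p = 0.125, the smallest possible), but −4.49 points for the 211 domains of at least 7500 bp. These tests take the lists as units and the regions as given. The split by width in the TKOL H3K9me3 list also parts strong from weak peaks, with median fold enrichments of 6.53 and 2.89. Regions were not matched on this strength, and its part in the differences was not tested. For Trim28 the call did not hold in these wider domains, where the difference was −0.0942 points (exact permutation p = 0.781). The Uhrf1 difference was 1.90 points without WT replicate 2, and 0.125 points with peaks of a −log10 q-value of at least 5 (exact permutation p = 0.688).

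Domains on little-repeated sequence carried fewer marks. Of the 109 domains made mostly of words found once in the genome, pooled TKOL Trim28 lay on 67.0% and Uhrf1 on 59.6%, and 46 had no WT H3K9me3 peak. A related set is the 139 domains whose words hardly recurred among the domains, with a median fold enrichment of 4.25. H3K9me3 peaks lay on 77.0% and 18.7% of them in TKOL replicates 1 and 2, and on 41.7% and 33.1% in WT. Fewer peaks on such domains were thus not particular to WT. Of the 209 lone domains, Trim28 lay on 73.7% and Uhrf1 on 59.8% in pooled TKOL. In group 1 these shares were 100% and 96.6%. The 76 domains on exons had WT H3K9me3 peaks on 64.5% and 61.8% in replicates 1 and 2, against 90.9% and 88.1% of the 883 domains outside coding genes. Exon domains were also less often marked in TKOL replicates 1 and 2, with H3K9me3 peaks on 82.9% and 56.6%, against 96.8% and 87.0%. Their median fold enrichment in pooled TKOL was 4.93, against 6.78. The lower share was thus not particular to WT.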

How the data were processed

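Peak lists of H3K9me3, Trim28 and Uhrf1 from TKOL, DKO0 and WT ESCs were analysed, 18 from single replicates and 6 pooled. Per the paper's methods, BWA mem served for alignment to mm9, GATK for the removal of duplicates and MACS2 for peak calling. The pooled lists were called again after replicates were merged on read level with input. The deposited lists give a fold enrichment per peak, which is a ratio to local background, and a −log10 p-value and q-value. Reads were not counted again. BWA mem was run with its default settings, and the paper's methods name no filter for ChIP-seq reads with several equal places. The passage of DKO0 in the ChIP data is taken from the names of the lists.

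DMRs were taken from the study's unfiltered and filtered sheets by coordinates. Of the unfiltered sheet 1999 rows were held, and 202 of the 574 others are in neither sheet, which is why membership was limited to the stretch named in the report. Overlap meant at least 1 bp. The members and gene lists were chosen with earlier results of these data known. Domains named are the 5 widest, the 5 of highest fold enrichment, 3 on each side of the width limit and those of the 3 clusters with most domains, with the coding genes they overlap and the family genes with a domain. The linker domains were added after their values were seen. A few items are not reported here. Genes came from GENCODE on mm9 (NCBIM37), and sequences from that genome and from the amplicon references of the study's primer table.

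A sample of 1 in 10 of all 31-base words was counted on both strands. Domains were joined by average linkage on the share of the smaller domain's words, and amplicons were matched by 16-base words. Lines and regions were compared with exact permutation tests in scipy 1.17.1 (numpy 2.4.6, pysam 0.24.0), and overlaps were checked with bedtools 2.31.1. The tests and the word counting were tested on simulated data. Alternatives were other overlaps, a −log10 q-value of at least 5, equal numbers of peaks, other widths and gaps, added or removed regions, each replicate left out and pairing by replicate number. Leaving out groups 2 and 3 was added after the data were seen. The share of masked bases was not computed, because the genome carries no masking.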

Additional observations from a re-analysis of the deposited data

How the results depend on the processing

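In the 4 comparisons that can reach a p under 0.05 (Trim28 and Uhrf1 between regions), 29 of 56 alternatives kept direction and call, 26 kept the direction only and 1 reversed. In the other 7, whose p cannot pass, 85 of 93 kept the direction and 8 reversed, which says nothing of their size. Leaving out 1 of 6 lists gave an exact permutation p = 0.0625 in all 24 such cases of Trim28 and Uhrf1 between regions, the smallest that 5 lists allow, with differences of −2.24 to −2.03 (Trim28) and −2.49 to −1.46 points (Uhrf1) against broad peaks at DMRs, and 2.11 to 2.47 and 1.90 to 4.23 points against narrower peaks. At a −log10 q-value of at least 5, Uhrf1 gave −0.292 (exact permutation p = 0.0938) and 0.125 points (p = 0.688). At a width of at least 7500 bp (211 domains), Trim28 gave −0.0942 points (exact permutation p = 0.781) and H3K9me3 −4.49 points (p = 0.125) against narrower peaks. The cause was not tested. Between lines, Trim28 in DKO0 minus TKOL ran from −16.5 to 3.52 points with 1 list left out, the highest without TKOL replicate 1, and WT minus the J1 lines from −20.8 to 1.38, the highest without WT replicate 2. Uhrf1 in DKO0 minus TKOL ran from −17.5 to 0.805, the highest without TKOL replicate 1, and was 0.339 at the q-value limit and 3.6 with equal numbers of peaks. H3K9me3 in DKO0 minus WT ran from −0.0847, without DKO0 replicate 1, to 11.2, and was −0.339 with equal numbers, 26.1 at the q-value limit and 21.4 at 10% coverage. The choice of domains by H3K9me3 in TKOL, from which DKO0 derives, can favour DKO0 in this comparison. Uhrf1 in WT minus the J1 lines ran from 25.4 to 33.8 points with 1 list left out, and was 8.98 at the q-value limit and 47.4 at 10% coverage. Gaps of at most 500 kb gave 85 clusters with 302 domains. The replicate numbers are not known to pair the samples, and no correlation of same-numbered lists was computed. With the replicate block the mean differences stayed −6.48, −9.72, −8.35, 29.4 and 5.55 points, with exact permutation p from 0.5, the smallest that 2 pairs allow, to 1. Leaving out groups 2 and 3 changed no call. Without read numbers, a domain lacking a peak may lack depth.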
